A study of Mus musculus with 4 samples.

Results

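The cells described here are the cycling cells of the mouse carotid artery after wire injury, that is, cells of any lineage that met a rule on genes of dividing cells. Cells were chosen by measured values, that is, a cell was counted as cycling when 6 proliferation genes, Mki67, Top2a, Birc5, Ube2c, Cdk1 and Cenpf, together held at least 0.03% of its unique molecular identifiers (UMIs), with at least 3 UMIs and at least 2 of the 6 genes seen. The rule found 195 cycling cells among 4094 cells from day 3, day 7 and day 14 after injury, and the other 3899 cells served for comparison. All animals were male C57BL/6 mice of 11 weeks at injury, in which a wire was drawn through the carotid artery, and uninjured arteries made up the day 0 sample. The vessels of several mice were pooled for each time point, thrombosed vessels were left out, the tissue was digested to single cells, dead cells were removed, and 1 droplet library was made for each time point. With 1 library a time point there is no replicate, so no p-value is given, and every interval printed (95%, exact) covers counting error only. Time, mouse pool and library cannot be told apart.

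A dividing cell copies its DNA in S phase and parts the copies in G2/M phase, and each phase uses its own genes. S phase draws on the replication licensing helicase (Mcm genes), on the clamp PCNA and its partner Pclaf, and on enzymes that make nucleotides, such as Tyms, Rrm2 and Tk1. Mitosis is started by the kinase Cdk1 with cyclins A and B (Ccna2, Ccnb2). Top2a untangles the sister chromatids, Mki67 coats the condensed chromosomes, Cenpf sits at the kinetochore, Birc5 (survivin) belongs to the chromosomal passenger complex, and Ube2c feeds ubiquitin to the anaphase-promoting complex that ends mitosis. In an injured artery, smooth muscle cells, endothelial cells, adventitial fibroblasts and macrophages are the cells best known to divide.

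The 6 genes of the rule are shown by the 150 bases before their start sites, because 2 kinds of short element are common ahead of G2/M genes. One is the CCAAT box, which the factor NF-Y binds. The other is the cell cycle genes homology region, which was searched as TTTGAA, and in a second form that has been described for it, as TTTAAA. The sequences are from RefSeq (GRCm38.p6), where all 6 genes were matched, and are written 5′ to 3′ on the strand of the gene. Capitals mark a match to any of these 3 motifs on either strand. The windows are chr7:135716380-135716529 (minus strand) for Mki67, chr11:99024190-99024339 (minus strand) for Top2a, chr1:189688087-189688236 (minus strand) for Cenpf, chr11:117849087-117849236 (plus strand) for Birc5, chr10:69352913-69353062 (minus strand) for Cdk1 and chr2:164769779-164769928 (plus strand) for Ube2c.
Mki67: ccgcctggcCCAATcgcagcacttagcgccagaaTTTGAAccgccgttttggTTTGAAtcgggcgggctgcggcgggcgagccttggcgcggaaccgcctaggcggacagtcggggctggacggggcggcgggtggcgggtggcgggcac
Top2a: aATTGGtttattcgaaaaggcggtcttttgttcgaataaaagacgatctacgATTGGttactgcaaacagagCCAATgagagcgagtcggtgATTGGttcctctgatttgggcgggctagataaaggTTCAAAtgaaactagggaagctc
Cenpf: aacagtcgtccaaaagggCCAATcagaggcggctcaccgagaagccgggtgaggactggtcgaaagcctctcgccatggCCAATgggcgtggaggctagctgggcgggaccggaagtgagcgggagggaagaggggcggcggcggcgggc
Birc5: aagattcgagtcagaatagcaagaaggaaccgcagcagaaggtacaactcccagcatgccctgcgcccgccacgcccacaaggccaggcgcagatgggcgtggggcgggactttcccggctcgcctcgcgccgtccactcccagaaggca
Cdk1: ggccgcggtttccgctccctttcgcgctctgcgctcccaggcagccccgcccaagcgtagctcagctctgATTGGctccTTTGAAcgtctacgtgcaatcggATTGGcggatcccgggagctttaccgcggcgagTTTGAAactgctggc
Ube2c: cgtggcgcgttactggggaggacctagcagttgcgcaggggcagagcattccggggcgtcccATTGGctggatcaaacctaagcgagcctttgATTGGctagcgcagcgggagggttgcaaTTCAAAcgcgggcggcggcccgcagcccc
These letters were found in 5 of the 6 windows. CCAAT was present ahead of Cenpf (2 times), Ube2c (2), Mki67 (1), Cdk1 (2) and Top2a (4), and the homology region, in its TTTGAA form, ahead of Ube2c, Mki67, Cdk1 and Top2a. Of 32851 windows of the same length and place over the genome, 24.5% held the CCAAT box, 9.07% held the first form of the homology region, 6.75% held its second form, and 3.6% held a CCAAT box and either form. The window of Birc5 held none, which says only that these letters are not in those 150 bases.

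Depth limited what could be seen in each cell. The libraries of days 3, 7 and 14 held 1689, 3001 and 1138 barcodes, of which 1196, 2018 and 880 had at least 500 genes, at least 1000 UMIs and at most 10% mitochondrial UMIs. The cycling cells were deeper than the rest: the median was 26884 UMIs against 6684 in the other cells of day 3, 19911 against 8876 on day 7, and 20385 against 13723 on day 14. Across the 4 libraries of the series 217 barcodes occurred in more than 1, and in 214 of these pairs one copy had at least 10 times fewer UMIs than the other. Of the cycling cells 6 were such shallow copies, 2 on day 3 and 4 on day 14. The shares of day 14 are given with and without them. In addition, 15, 5 and 1 of the cycling cells had under 0.5% mitochondrial UMIs, and 1, 8 and 0 were scored as likely doublets.

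The values that chose the cells were widely spread. On day 3 the 6 genes held between 0.0329% and 0.844% of a cycling cell's UMIs, with a median of 0.235%. On day 7 the range was 0.0301% to 0.825% with a median of 0.187%, and on day 14 it was 0.0360% to 1.04% with a median of 0.273%. A cycling cell had a median of 37, 24 and 36 UMIs of the 6 genes on the 3 days, and all 6 genes were seen in 41, 43 and 10 cells. At the edge of the rule, 8, 6 and 2 cells had exactly 3 UMIs, and 7, 13 and 2 lay below 0.05%. Just outside it, 38, 62 and 7 other cells had 3 or more UMIs of the 6 genes but fell short in share or in number of genes, and 885, 1522 and 777 of the other cells had none. Mki67 was the gene seen most often on day 7 and day 14, in 83.1% and 95.2% of the cycling cells, and Birc5 on day 3, in 94.1%.

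Proliferation genes that the rule did not use were checked next, since the label rests on the 6 genes alone. Stmn1, which regulates microtubules, was seen in 90.6%, 80.9% and 81.0% of the cycling cells on days 3, 7 and 14, and Pclaf in 76.5%, 74.2% and 66.7%. Ccna2 was seen in 68.2%, 68.5% and 71.4%, the spindle factor Tpx2 in 67.1%, 64.0% and 66.7%, and Rrm2 in 61.2%, 47.2% and 61.9%. In all, 9 such genes (also Mcm5, Nusap1, Ccnb2 and Tk1) were seen in at most 17.5% of the other cells, and all 9 were higher by 2-fold or more in the cycling cells of each of the 8 comparisons described further on. These genes share their cells with the rule and are given as a description.

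The cycling cells came from several immune and vessel wall lineages, in proportions that differed between the days. No neutrophil-like, B cell-like, plasmacytoid dendritic-like or erythroid-like cell met the rule on any day. These classes were partly small, with 10, 10 and 20 B cell-like cells on days 3, 7 and 14. Erythroid-like cells numbered 60 and plasmacytoid dendritic-like cells 7 on day 7. Lineages were taken from clusters of the other cells, built without cell cycle genes and named by marker genes, and a cycling cell received the class of at least 60% of its 15 nearest other cells. On day 3 the 85 cycling cells were 20 monocyte/macrophage-like, 17 fibroblast-like, 12 smooth muscle-like, 12 dendritic-like and 6 endothelial-like, with 1 T cell-like and 17 unnamed cells. On day 7 the 89 cycling cells were 30 monocyte/macrophage-like, 16 fibroblast-like, 15 T cell-like, 14 dendritic-like, 2 smooth muscle-like, 2 endothelial-like and 2 NK cell-like cells, with 8 unnamed. On day 14 the 21 cycling cells were 8 monocyte/macrophage-like, 5 dendritic-like, 3 fibroblast-like and 3 T cell-like cells, with 1 endothelial-like and 1 smooth muscle-like cell. Without the copied barcodes the 17 cells left on day 14 were 7 monocyte/macrophage-like, 5 dendritic-like, 3 T cell-like and 2 fibroblast-like cells, and the T cell-like cell of day 3 was also lost.

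Cells of the vessel wall, that is the fibroblast-like, endothelial-like and smooth muscle-like classes, made up 41.2% of the cycling cells on day 3 (30.6 to 52.4%), 22.5% on day 7 (14.3 to 32.6%) and 23.8% on day 14 (8.22 to 47.2%). Of the 5 such cells of day 14, 3 were copied barcodes, and without copies the share was 2 of 17 (11.8%, 1.46 to 36.4%). Among the other cells the same classes made up 17.9%, 11.4% and 64.7%. Monocyte/macrophage-like cells went the other way, from 23.5% of the cycling cells (15.0 to 34.0%) through 33.7% (24.0 to 44.5%) to 38.1% (18.1 to 61.6%), or 7 of 17 without copies (41.2%), and these intervals overlap. Their share of the other cells was 30.6%, 36.4% and 15.25%, which lay above their share of the cycling cells on days 3 and 7. T cell-like cells held 1.18% of the cycling cells on day 3 and 16.9% on day 7, while their share of the other cells was 5.22% and 15.6%. The fibroblast-like share depended on how classes were built: on day 3 it was 20.0%, but 37.6% when all cells were clustered together, and on day 7 it was 18.0%, but 7.87% when each library was clustered alone.

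**Figure D1:**
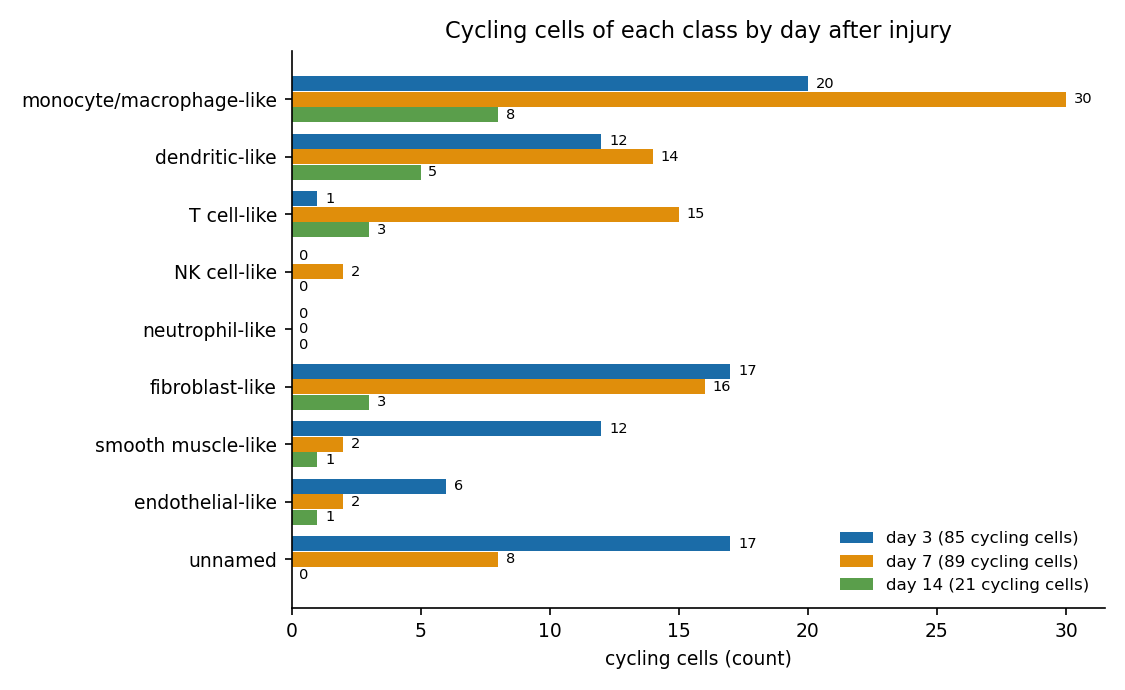
Number of cycling cells of each class (horizontal axis, cells) on day 3, day 7 and day 14, 1 bar for each day, with the count beside it. Monocyte/macrophage-like cells have the longest bars on each day (20, 30 and 8), smooth muscle-like cells have 12 on day 3 and 1 on day 14, and neutrophil-like cells have none.

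Read within each lineage, the share of cycling cells in the vessel wall was highest on day 3 and lowest on day 14, while in immune cells the days had overlapping intervals. Of all cells past the filter, 7.11% were cycling on day 3 (5.72 to 8.71%), 4.41% on day 7 (3.56 to 5.40%) and 2.39% on day 14 (1.48 to 3.62%), the last 1.95% without copied barcodes. In vessel wall cells the shares were 15.0% (10.6 to 20.2%), 8.33% (5.16 to 12.6%) and 0.891% (0.290 to 2.07%), so that the interval of day 14 lies below both others. Without copied barcodes the day 14 share was 2 of 553 (0.362%, 0.0438 to 1.3%). In monocyte/macrophage-like, dendritic-like, T cell-like and NK cell-like cells together they were 5.16% (3.58 to 7.17%), 3.93% (3.02 to 5.02%) and 5.56% (3.21 to 8.87%), and these intervals overlap. Without copies the day 14 value was 15 of 287 (5.23%).

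Fibroblast-like cells gave the clearest fall. They were cycling in 17 of 141 cells on day 3 (12.1%, 7.18 to 18.6%), in 16 of 181 on day 7 (8.84%, 5.14 to 14.0%) and in 3 of 483 on day 14 (0.621%, 0.128 to 1.80%), or 2 of 481 without copies (0.416%). Smooth muscle-like cells were cycling in 12 of 73 cells on day 3 (16.4%, 8.79 to 27.0%), in 2 of 30 on day 7 (6.67%, 0.818 to 22.1%) and in 1 of 68 on day 14 (1.47%, 0.0372 to 7.92%), the last a copied barcode. Endothelial-like cells were few, with 6 of 20 cycling on day 3 (11.9 to 54.3%), 2 of 29 on day 7 (6.90%, 0.846 to 22.8%) and 1 of 10 on day 14 (0.253 to 44.5%). The last was a copied barcode, and without copies 0 of 7 were cycling, for which 3 counts set a limit of 42.9%.

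In the immune classes the intervals of the days overlapped. Monocyte/macrophage-like cells were cycling in 20 of 360 cells on day 3 (5.56%, 3.43 to 8.45%), in 30 of 733 on day 7 (4.09%, 2.78 to 5.79%) and in 8 of 139 on day 14 (5.76%, 2.52 to 11.0%), or 7 of 138 without copies (5.07%). Dendritic-like cells gave 7.23% (3.79 to 12.3%) and 3.92% (2.16 to 6.49%) on days 3 and 7, and 5 of 36 cells on day 14 (13.9%, 4.67 to 29.5%). T cell-like cells gave 1 of 59 on day 3, 15 of 316 on day 7 (4.75%, 2.68 to 7.71%) and 3 of 84 on day 14 (3.57%, 0.743 to 10.1%). No cycling cell was found among 226 neutrophil-like cells of day 3, for which 3 counts set a limit of 1.33%, or among 106 on day 7, with a limit of 2.83%. Neutrophils are known to leave the bone marrow after their last division. At their median of 2892.5 UMIs on day 3, the minimum of 3 UMIs asks for more than 0.03% of a cell's UMIs, so their value sets no background for deeper cells. NK cell-like cells were cycling in 0 of 55 on day 3, 2 of 146 on day 7 (1.37%) and 0 of 29 on day 14.

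Because deeper cells meet a UMI rule more easily, each cell was also thinned to 2000 UMIs, at which 3 UMIs is itself a stricter share. The share of cycling cells was then 4.29% on day 3 (46 of 1073 cells, 3.16 to 5.68%), 2.55% on day 7 (47 of 1841, 1.88 to 3.38%) and 1.49% on day 14 (12 of 806, 0.772 to 2.59%). The 4 copied cells of day 14 had under 2000 UMIs each and drop out here. Vessel wall cells gave 8.65% (16 of 185, 5.02 to 13.7%), 4.88% (10 of 205, 2.36 to 8.79%) and 0.192% (1 of 522, 0.00485 to 1.06%). In fibroblast-like cells the thinned shares were 9.65% (11 of 114, 4.92 to 16.6%), 4.97% (8 of 161, 2.17 to 9.56%) and 0.219% (1 of 456, 0.00555 to 1.22%), in the same order as before thinning. Monocyte/macrophage-like cells gave 3.72% (2.00 to 6.29%) and 2.71% (1.64 to 4.2%) on days 3 and 7. Dendritic-like cells gave 4.22% (7 of 166, 1.71 to 8.50%), 1.74% (6 of 345, 0.641 to 3.75%) and 12.1% (4 of 33, 3.40 to 28.2%) on days 3, 7 and 14, and the intervals of the last 2 days barely overlap. Smooth muscle-like cells of day 3 fell from 16.4% to 4.92% (3 of 61, 1.03 to 13.7%), a share whose interval covers that of the macrophages. Neutrophil-like cells stayed at 0 of 194 and 0 of 93.

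**Figure D2:**
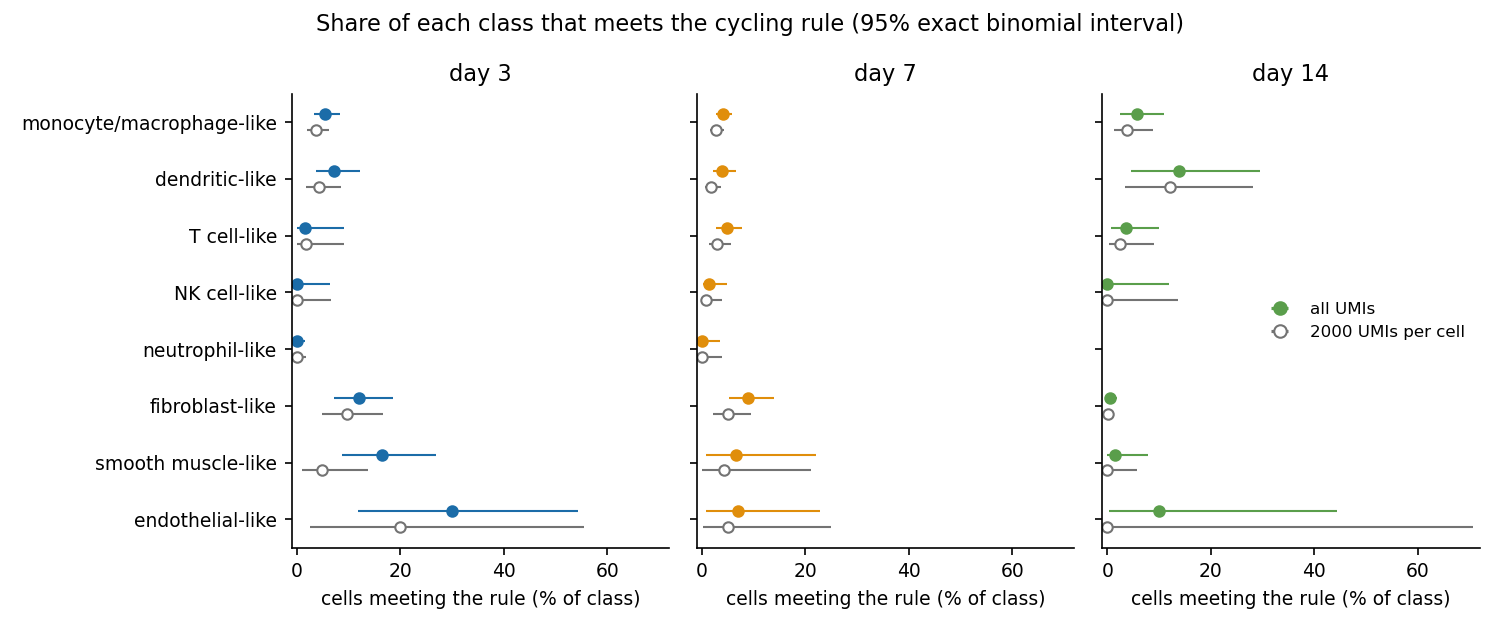
Cells that meet the rule as a percentage of their class (horizontal axis) in 8 classes, with a panel for each of days 3, 7 and 14. Filled points show all UMIs, open points each cell thinned to 2000 UMIs, and lines the exact 95% intervals, which cover counting error only. Fibroblast-like cells go from 12.1% on day 3 to 0.621% on day 14, whereas monocyte/macrophage-like cells lie between 4.09% and 5.76%.

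Among monocyte/macrophage-like and fibroblast-like cells the share of cycling cells varied between clusters. The clusters are named here by their leading genes, and their shares are a description of the same cells. Among monocyte/macrophage-like cells of day 3, a cluster led by Pf4, F13a1 and Stab1, genes of tissue-resident macrophages, held 11 cycling cells of 73 (15.1%, and 12.7% after thinning). By contrast, a cluster led by the monocyte genes Plac8, Klra2 and Thbs1 held 0 of 58, which allows up to 5.17%, and one led by Hbb-bs, Ccl6 and Chil3 held 0 of 80, which allows up to 3.75%. Other clusters of day 3 lay between or near these. One led by Acp5, Aif1 and Slc37a2 held 4 of 28 (14.3%, 4.03 to 32.7%). One led by Ccl12, Ifit3 and Ifit1 held 4 of 54 (7.41%), and one led by Ltc4s, Ccl6 and Ednrb held 1 of 44 (2.27%). On day 7 the Plac8 cluster held 1 cycling cell of 360 (0.278%), against 15 of 203 (7.39%) in a cluster led by Ms4a7, C1qa and C1qc, 7 of 85 (8.24%) in one led by Acp5, Aif1 and Slc37a2, and 5 of 16 (31.3%) in the Pf4 cluster. On day 14 the Ms4a7 cluster held 5 of 100.

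Fibroblast-like cells changed cluster between the days. On day 3 a cluster led by Saa3, Prg4 and Cxcl5 held 13 cycling cells of 90 (14.4%, and 9.09% after thinning), and a small one led by Timp1, Vcam1 and Inhba held 3 of 10. On day 7 the Timp1 cluster held 8 of 26 (30.8%, and 2 of 18 after thinning), a cluster led by Eln, Rgs5 and Wisp2 held 5 of 71 (7.04%), and the Saa3 cluster held 2 of 36. A cluster led by C1qtnf3, Angptl1 and Cilp held 0 of 26 on day 7 and 2 of 230 on day 14 (0.870%), where it was the main fibroblast-like cluster.

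Dendritic-like cycling cells lay chiefly in a cluster led by Cd209a, Clec10a and Mgl2, genes of type 2 and monocyte-derived dendritic cells. This cluster carried 8 monocyte/macrophage markers beside 4 dendritic ones. It held 13 cycling cells of 142 on day 3 (9.15%), 12 of 303 on day 7 (3.96%) and 4 of 32 on day 14 (12.5%). A smaller cluster led by Ccl22, Ccr7 and Fabp5, genes of migratory dendritic cells, held 0 of 25 on day 3, which allows up to 12.0%, 2 of 54 on day 7 (3.70%) and 1 of 4 on day 14, so no difference between these clusters was detectable. T cell-like cycling cells of day 7 came chiefly from a Ccl5 cluster (7 of 125, 5.60%) and a Trac and Icos cluster (7 of 141, 4.96%). A cluster led by Trdc, Cxcr6 and Cd163l1, genes of gamma-delta T cells, held 0 of 44, which allows up to 6.82% and so does not set it apart, and 1 of 24 on day 14 (4.17%). Cluster counts can exceed the class counts, since a cell is placed in a cluster by its single most frequent neighbour and in a class only by at least 60% of its neighbours.

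**Figure D3:**
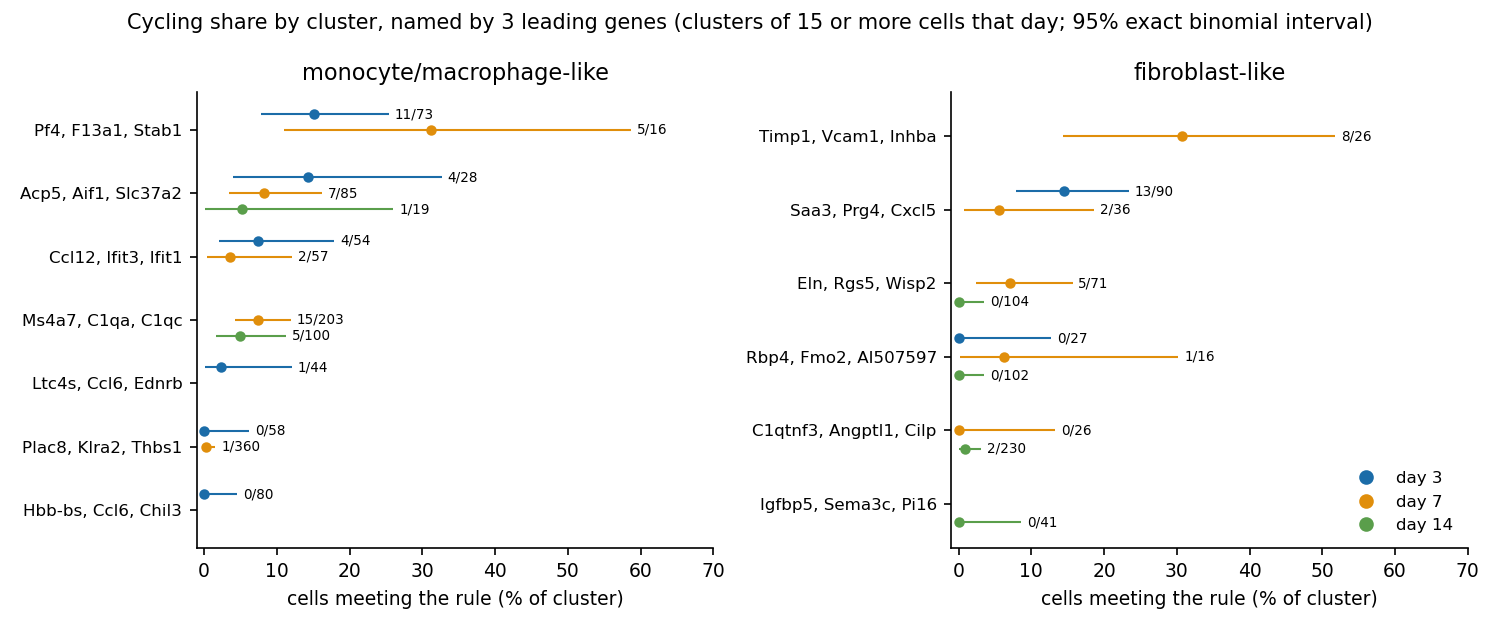
Cells that meet the rule as a percentage of their cluster (horizontal axis) in the monocyte/macrophage-like and fibroblast-like clusters with at least 15 cells on that day, named by 3 leading genes and coloured by day, with the cell counts beside each point and lines for the exact 95% intervals. The Pf4 cluster is at 11 of 73 on day 3, while the Plac8 cluster is at 0 of 58 on day 3 and 1 of 360 on day 7.

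As a group the cycling cells held both S phase and G2/M genes. Summed over the cycling cells, S phase genes stood at 4687 CPM (counts per 1e6 UMIs) on day 3 against 775 in the other cells, at 4135 against 777 on day 7 and at 6309 against 621 on day 14. G2/M genes without those of the rule stood at 12618 against 1321, 12237 against 1439 and 17083 against 1160 CPM, and late mitosis genes at 1112 against 84.1, 1099 against 102 and 1118 against 84.4 CPM. Not every cell did so: in 7 of the 195 the share of G2/M genes outside the rule was no higher than in the other cells of the same class and day, in 19 that of S phase genes was not, and in 5 neither was. All 6 genes of the rule are in the G2/M list, so cells in early S phase are less likely to meet the rule. By a like rule on 6 S phase genes (Tyms, Rrm2, Pclaf, Tk1, Mcm5 and Uhrf1), 62.4%, 61.8% and 66.7% of the cycling cells of days 3, 7 and 14 were also taken, and a further 22, 19 and 4 cells outside the rule. Those extra cells of day 7 were 6 monocyte/macrophage-like, 6 T cell-like, 4 fibroblast-like, 2 dendritic-like and 1 smooth muscle-like cell.

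The order of the lineages by phase balance depended on how cells were weighted. The ratio of G2/M to S phase UMIs in the cycling cells was 2.69 on day 3 (2.64 to 2.75), 2.96 on day 7 (2.90 to 3.03) and 2.71 on day 14 (2.58 to 2.84). Among the named classes with at least 6 cycling cells on day 3 it was 2.06 in smooth muscle-like (1.97 to 2.15), 2.27 in dendritic-like, 2.82 in monocyte/macrophage-like, 3.15 in fibroblast-like and 3.89 in endothelial-like cells, with 1.66 in the 17 unnamed cells. By the mean of each cell's CPM the same classes stood at 2.05, 2.32, 2.52, 3.61 and 2.11, with 3.00 in the unnamed cells, so the endothelial-like value went from the highest to near the lowest. Cycling monocyte/macrophage-like cells stood at 2.82, 3.32 and 1.5 (1.38 to 1.62) on the 3 days, the last from 8 cells, and at 2.52, 3.05 and 1.53 by the mean of cells. UMIs of 1 cell are not independent, so these intervals are too narrow for a comparison of lineages. More S phase than G2/M UMIs were counted in 15, 13 and 5 single cells.

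**Figure D4:**
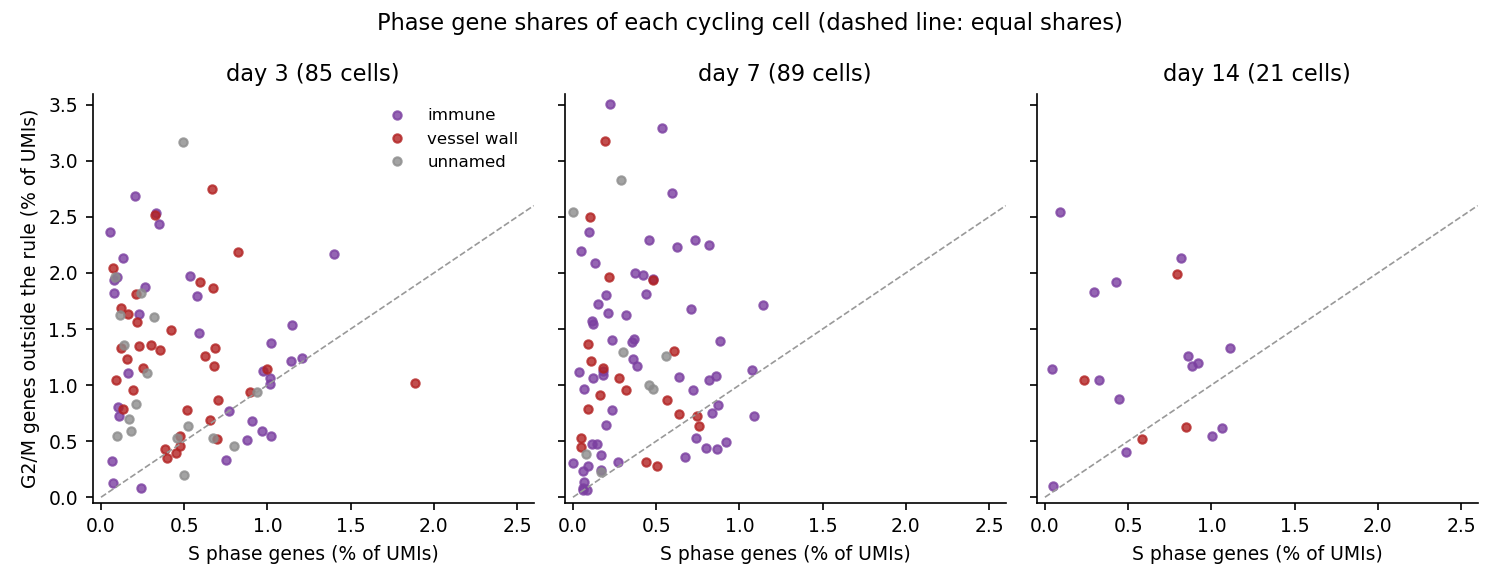
Each cycling cell by the percentage of its UMIs in S phase genes (horizontal axis) and in G2/M genes outside the rule (vertical axis), with a panel for each of days 3, 7 and 14, colours for immune, vessel wall and unnamed cells, and a dashed line where both shares are equal. Most cells lie above the line, and 15, 13 and 5 cells lie below it.

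What set the cycling cells apart beyond the cycle genes was asked within each lineage, by the ratio of summed CPM between cycling cells and the other cells of the same class and day. At least 10 cycling cells were present in 8 comparisons: monocyte/macrophage-like, dendritic-like and fibroblast-like cells on days 3 and 7, smooth muscle-like cells on day 3 and T cell-like cells on day 7. Ratios are log2 values of CPM with 10 added to both sides, which understates the change of low genes, and a gene was called higher or lower past 2-fold. The calls are thresholds of size, not tests, and a single cell can set a value where few cells hold a gene. A gene was compared where it had at least 20 UMIs in all and 20 CPM in either group. A gene low in one group therefore entered only where the other group was high. Tallies over the comparisons where a gene was tested follow in part from this. Over all tested genes other than cycle genes, 4.32% were higher and 3.26% lower in monocyte/macrophage-like cells of day 3, and 4.91% and 4.42% on day 7. The shares were 4.67% higher and 3.73% lower in dendritic-like cells of day 3, 3.69% and 4.25% on day 7, and 4.09% and 7.84% in T cell-like cells of day 7. They were 4.68% and 3.19% in fibroblast-like cells of day 3, 4.56% and 5.53% on day 7, and 4.74% and 3.78% in smooth muscle-like cells of day 3. The median over all tested genes lay between -0.09 and 0.16 in the 8 comparisons.

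Some genes outside the cycle lists were higher in the cycling cells of every lineage compared. Of 3652 genes tested in all 8 comparisons, 23 were called higher in all 8 and none was called lower in all 8. They included Cep55, which acts in the final parting of daughter cells (log2 ratio 2.44 to 3.13), Diaph3, a formin that builds actin filaments (1.96 to 3.35), Dbf4, the activator of the replication kinase Cdc7 (1.40 to 2.68), and Rad21, a cohesin subunit (1.35 to 2.32). Ccdc34 (2.03 to 2.76), Ube2s, a ubiquitin enzyme of the anaphase-promoting complex (1.63 to 2.46), and Nucks1, a chromatin protein (1.42 to 2.51), were others. Several of these are themselves known division genes that the cycle lists had left out. Genes nearly absent from the other cells, such as Cep55, passed the 20 CPM filter only through the cycling cells. For such genes, being higher in all 8 follows in part from being tested in all 8. Kpna2, a nuclear import receptor, was higher in 7 of 8, with the lowest log2 ratio at 0.59.

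Of the gene lists of growth and biosynthesis, 3 had medians above that of all tested genes in all 8 comparisons. Enzymes of purine, pyrimidine and one-carbon metabolism had list medians of 0.58 to 1.16, and 30 of 99 gene comparisons were higher and none lower. Psat1, of serine synthesis, was higher in all 6 comparisons where it was tested (1.03 to 1.97). In T cell-like cells of day 7 it passed the 20 CPM filter only through the cycling cells, so this count partly follows from the filter. Mthfd2, a mitochondrial folate enzyme, was higher in 4 of 8. RNA splicing genes had medians of 0.56 to 1.20, with 22 of 104 higher, among them Snrpd1, a core protein of the spliceosome (higher in 6 of 8), and Hnrnpab (5 of 8). Ribosome biogenesis genes had medians of 0.15 to 1.04, with 18 of 111 higher, such as Pa2g4 and Nop58, a nucleolar protein (each in 4 of 8). Other growth lists did not. Cholesterol synthesis genes lay above all tested genes in 4 comparisons and below in 4 (medians of -0.43 to 1.10), with 5 of 54 values higher and 2 lower. Cytosolic ribosomal protein genes lay below in 6 of 8 (-0.30 to 0.28), and none of 144 values passed 2-fold. In the same comparisons respiratory chain and proteasome genes lay above in 7 of 8, with medians of -0.15 to 0.67 and -0.26 to 0.53. They had few calls (3 higher and 1 lower of 112, and 1 and 0 of 96). Glycolysis genes were higher in 4 of 110 values (3.64%) and lower in 7 (6.36%), near the shares over all tested genes, and their median lay below that of all tested genes in 3 of 8. The higher lists did not hold under every setting: in T cell-like cells of day 7 matched on depth, and in fibroblast-like cells of day 7 weighted to clusters, medians of purine and ribosome biogenesis genes changed sign, as the values beside those lineages show.

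Genes of quiescence and early stress response lay below all tested genes in the same comparisons. None of their 112 values was higher by 2-fold and 31 were lower, with list medians from -1.33 to -0.08. The transcription factor Klf4 and the antiproliferative Btg1 were lower in 4 of 8 comparisons each, and Btg2, Klf2, Fos and Zfp36 in 3 of 8 each. Several of these genes are also known to respond to tissue digestion. Interferon-stimulated genes were lower in 36 of 57 values and higher in 2, with medians from -2.39 to -0.61 in 7 comparisons and 0.07 in dendritic-like cells of day 7. Ifit1 was lower in all 7 comparisons where it was tested (-3.21 to -1.07) and Isg15, a ubiquitin-like protein, in 5 of 8. In fibroblast-like cells of day 3 the interferon median was -0.68 from summed counts but 0.14 from the mean of cells. Receptors of growth factors and cytokines had medians from -0.88 to -0.04, with 8 of 57 lower and 1 higher, Igf1r in fibroblast-like cells of day 7 (1.02).

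**Figure D5:**
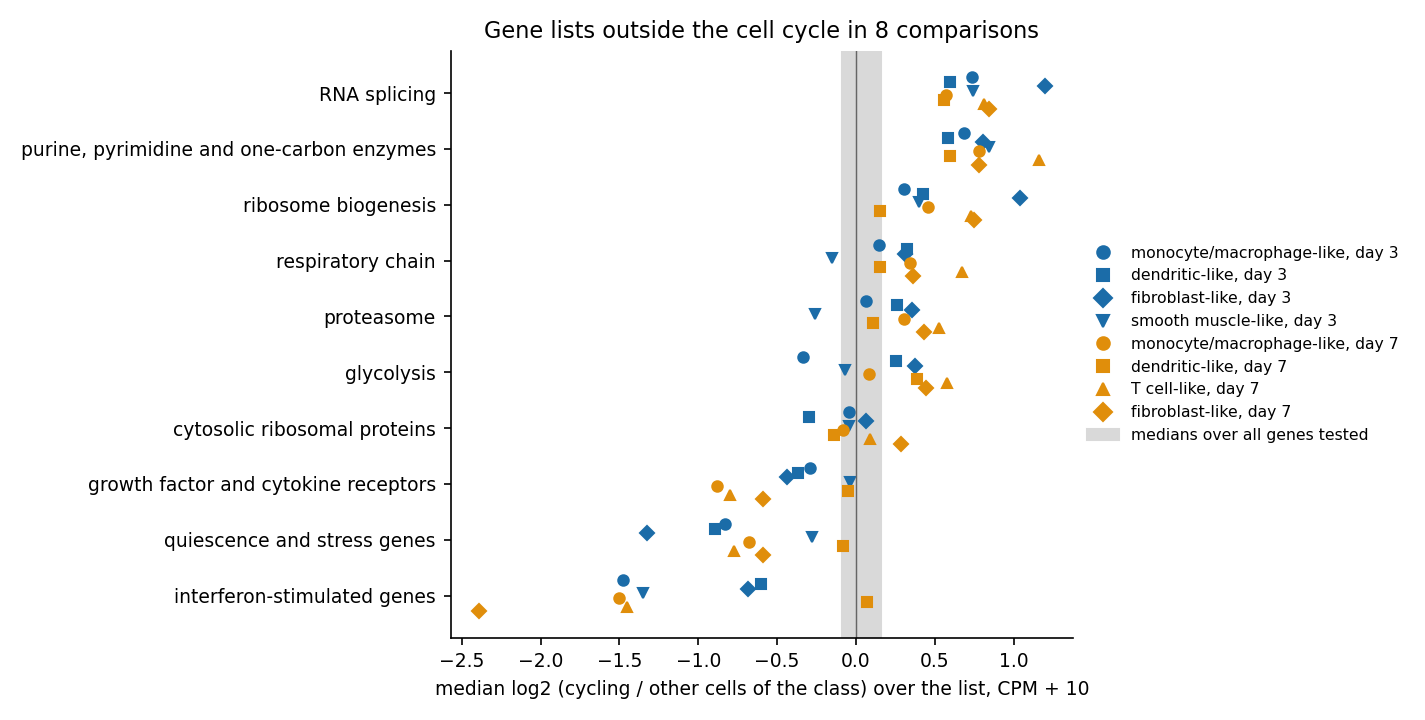
Median log2 ratio (cycling over other cells of the same class and day, CPM + 10, horizontal axis) over each of 10 gene lists in the 8 comparisons, with shapes for classes, colours for days and a grey band for the range of the medians over all tested genes. Splicing and purine, pyrimidine and one-carbon genes lie to the right of the band in all 8, and interferon-stimulated genes reach -2.39 in fibroblast-like cells of day 7.

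Regulators of entry into the cycle moved less uniformly. Cdkn2d, an inhibitor of the cyclin D kinases, was higher in 7 of 8 comparisons (0.63 to 1.61), as in fibroblast-like cells of day 3 at 79.7 against 19.4 CPM. Cdkn1a, which encodes the inhibitor p21, was lower in cycling fibroblast-like cells of day 3 at 42.2 against 148 CPM (-1.60) and higher in cycling smooth muscle-like cells of day 3 at 224 against 80.6 CPM (1.37). Cdkn1c, which encodes p57, was lower in fibroblast-like cells on both days, at 6.38 (all from 1 cell) against 64.0 and 22.5 against 56.8 CPM. Ccnd1, cyclin D1, stood at 150 against 37.1 CPM in smooth muscle-like cells of day 3 (1.76) and was seen in 10 of 12 cycling cells against 14 of 61 others. Ccnd2 was lower in monocyte/macrophage-like cells of day 7 (-1.44), dendritic-like cells of day 3 (-1.04) and T cell-like cells of day 7 (-1.09).

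Cycling monocyte/macrophage-like cells carried a macrophage rather than a monocyte set of genes. Monocyte genes had a median of -2.54 on day 3, with 5 of 7 lower, and of -2.33 on day 7, with 6 of 8 lower. Plac8, a monocyte gene, stood at 53.1 CPM in 20 cycling cells of day 3 against 698 in 340 others (0.0760-fold, 0.05 to 0.111), and at 24.7 CPM in 30 cells of day 7 against 1082 in 703 others (0.0228-fold, 0.0125 to 0.0383). It was seen in 7 of the 20 and 6 of the 30 cycling cells, so most of them had none. Ly6c2, which marks classical monocytes, stood at 7.87 against 94.2 CPM and 1.76 against 157 CPM, and the chitinase-like Chil3 at 15.7 against 270 CPM on day 3 and at 0 UMIs against 73.6 CPM on day 7. Ccr2, the receptor that brings monocytes into tissue, differed less, at 655 against 977 CPM (-0.57) and 238 against 635 CPM (-1.38).

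C1qa, a complement gene of tissue macrophages, was seen in 19 of 20 and 27 of 30 cycling cells, at 2956 against 2024 CPM on day 3 and 3886 against 2430 on day 7. Per cell its median was 3443 CPM in cycling cells and 834 in the others of day 3, and 3832 against 98.2 on day 7. Mrc1, the mannose receptor, stood at 1386 against 744 CPM (0.89) and at 684 against 261 (1.36). Pf4 stood at 3030 against 2152 CPM (0.49) and 1334 against 519 (1.35), and Folr2, a folate receptor, at 218 against 193 (0.17) and 137 against 38.5 (1.60). Over the list of resident macrophage genes 2 of 10 were higher on day 3 and 4 of 9 on day 7, none of them lower by 2-fold. The day 7 median of this list was 0.77, but -0.023 once the other cells were weighted to the clusters of the cycling cells. Weighted the same way, Plac8 stayed lower, at -2.44 on day 3 and -2.33 on day 7.

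MHC class II genes of these cells were lower in sum on day 7, and Il1b on both days. All 7 MHC class II genes were lower on day 7 (median -1.44) and none of 7 on day 3 (-0.37), a difference between days that was not tested. Cd74, the invariant chain, stood at 4765 against 12086 CPM on day 7 and at 3996 against 5234 on day 3. Per cell its median was 150 CPM in cycling cells and 2018 in the others of day 3, where 1 cell held 36.1% of the UMIs, and 3046 against 10117 on day 7. By cell, then, the values of day 3 were also apart. Ciita, the master regulator of MHC class II, stood at 45.8 against 167 CPM on day 7. Il1b, which encodes interleukin 1 beta, was lower on both days, at 57.0 against 730 CPM and 453 against 1876 CPM, whereas Tnf (55.1 against 52.7, and 150 against 157 CPM) and Ccl2 (1331 against 1244, and 414 against 462 CPM) were close to the others. Fn1, fibronectin, stood at 893 against 2745 CPM on day 3 and at 513 against 414 on day 7.

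The genes named by size in this class were mostly division genes on the higher side. Foxm1, the transcription factor of G2/M genes, Cep55, Spag5, Kifc1 and Kpna2 led, and Foxm1 had 2 UMIs in the 340 other cells of day 3. On the lower side, beside Plac8, stood Thbs1, Hes1, Hp, Mcemp1 and Dmkn, with Hp at 1.97 against 119 CPM on day 3 and 3.52 against 75.3 on day 7, each from at most 2 UMIs in the cycling cells. Weighted to clusters, Hp, Mcemp1 and Dmkn of day 7 were at -0.74, -0.81 and -0.74, within 2-fold, and with depth matched Hes1 and Dmkn of day 3 were at -0.70 and -0.80. Interferon-stimulated genes had 7 of 9 lower on day 3 and 9 of 10 on day 7, among them Mx1 at 15.7 against 61.7 and 8.81 against 77.0 CPM. Of the 30 cycling cells of day 7, 3 were scored as likely doublets. The summed markers of the class were 16195 CPM in cycling cells against 21513 on day 3, and 17620 against 20883 on day 7.

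Cycling dendritic-like cells of day 7 had antigen presentation genes at the level of the others. Cd74 stood at 20239 against 20635 CPM on day 7 (-0.03) and at 13562 against 22539 on day 3 (-0.73), and H2-Ab1 at 9079 against 9587 and 7003 against 11019 CPM. Ccl22, a chemokine of mature dendritic cells, stood at 2.96 CPM (1 UMI) against 441 CPM on day 3 and 17.1 against 147 CPM on day 7, but its day 3 value of -5.12 was -0.78 after weighting to clusters. Other genes of mature dendritic cells did not move one way: Ccr7, a homing receptor, had no UMI in the 12 cells of day 3 against 203 CPM but stood at 582 against 282 CPM on day 7, from 2 of 14 cells, and Fscn1, fascin, had none against 239 CPM and then 164 against 241 CPM. On day 14 a single cell of the 5 held both, at 734 against 321 and 1256 against 92.6 CPM. Cd209a, a lectin of type 2 and monocyte-derived dendritic cells, stood at 275 against 1134 CPM on day 3 and 350 against 1034 on day 7. On day 3 it was seen in 5 of the 12 cycling cells, with 77.4% of its UMIs in 1 cell. The related Cd209d had no UMI on either day against 63.5 and 74.3 CPM. Spp1, osteopontin, was higher on both days, at 195 against 40.1 CPM in 9 of 12 cells (2.03) and 379 against 40.9 CPM in 8 of 14 cells (2.93). Flt3, a growth factor receptor of dendritic cells, stood at 59.1 against 89.2 and 46.5 against 110 CPM.

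Monocyte genes of these cells had a median of -0.11 on day 3 and of -1.87 on day 7, with 4 of 6 lower on day 7. Plac8 stood at 414 against 469 CPM on day 3 and 53.8 against 827 on day 7, and Ccr2 at 976 against 675 and 271 against 459 CPM, with 66.7% of its day 7 UMIs in 1 cell. Some macrophage genes were present too: Mrc1 stood at 689 against 314 CPM on day 3, and C1qb at 624 against 210 CPM on day 7, where a single cell held 91.0% of its UMIs. The median of the resident macrophage list was 0.55 and 1.38 on the 2 days, and reversed to -1.49 and -2.14 when cells were matched on depth. The summed dendritic markers were 893 against 2324 CPM on day 3 and 1548 against 2221 on day 7, so the class name rests on less signal in the cycling cells, and 4 of the 14 cells of day 7 were scored as likely doublets. The summed monocyte/macrophage markers were 3710 against 3201 CPM on day 3 and 2743.5 against 2966 on day 7, above the dendritic sums in both groups.

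Cycling T cell-like cells of day 7 had the markers of the class at the level of the others, 5006 against 5286 CPM in sum. Trac, of the alpha-beta T cell receptor, was seen in 13 of 15 cells at 778 against 542 CPM. Trdc, of the gamma-delta receptor, came from 1 of the 15 cells, at 74.7 against 363 CPM, and Il17a, Blk and Trdv4 had no UMI against 106, 60.1 and 53.3 CPM. Weighted to clusters, Il17a was at -1.75, but Blk at -0.079 and Trdv4 at -0.61, within 2-fold. Il7r, the interleukin 7 receptor of resting and memory T cells, stood at 84.0 against 676 CPM (-2.87, or -1.49 with depth matched). Cd8a stood at 180 against 95.4 CPM (0.85), with 72.4% of its UMIs in 1 cell, Cd4 at 87.1 against 100.3 (-0.18) and Icos, a costimulatory receptor, at 193 against 282 (-0.53).

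Cytokine genes were higher in a few of these cells. Ccl4 stood at 825 against 80.7 CPM in 8 of 15 cells, with 62.3% of its UMIs in 1 cell, and Ccl3 at 404 against 31.8 CPM, with 76.2% in 1 cell. Gzma, a granzyme, was higher at 401 against 139 CPM, with 89.9% of its UMIs in 1 cell, so these values do not describe the cells as a whole. The enzymes of nucleotide and one-carbon metabolism were higher in 10 of 15 genes with a median of 1.16, such as Psat1 (96.5 against 17.1 CPM), Impdh2 (187 against 71.9 CPM) and Mthfd2 (99.6 against 39.1 CPM). The cycling cells had a median of 17903 UMIs and the others 6129, and within matched depth the median of this list was -0.36, that of ribosome biogenesis -0.94 (0.73 before), of glycolysis -0.47 (0.58 before) and of quiescence genes 0.20 (-0.77 before).

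Cycling fibroblast-like cells were lower in adventitial genes. On day 3, 3 of 7 adventitial genes were lower (median -0.96), and on day 7 all 7 were (-2.13). Pi16, which marks adventitial progenitor fibroblasts, stood at 97.2 CPM in 17 cycling cells against 478 in 124 others on day 3 (0.203-fold, 0.168 to 0.244), and at 77.0 in 16 cells against 702 in 165 others on day 7 (0.110-fold, 0.0845 to 0.14). Clec3b stood at 83.7 against 392 and 66.4 against 325 CPM, Cd34 at 213 against 342 and 56.9 against 318 CPM, and Dpt, dermatopontin, at 443 against 723 and 231 against 1046 CPM. Pi16 and Clec3b passed 2-fold on both days, and Cd34 and Dpt on day 7. The log2 ratio of Pi16 on day 7 went from -3.03 to -1.20 when weighted to clusters. Its day 3 value went from -2.19 to -1.22 with depth matched, and both stayed past 2-fold. On day 7 89.3% of the Clec3b UMIs came from 1 cycling cell, and its log2 ratio of -2.13 was -0.77 with depth matched and -0.87 weighted to clusters, within 2-fold.

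Contractile genes were higher in the same cells. On day 3, 3 of 6 contractile genes were higher (median 1.00), and on day 7 8 of 9 were (1.68). Without the 1 cycling cell that held most contractile UMIs of its day, these were 2 of 6 (0.75) and 5 of 9 (1.18). Acta2, smooth muscle actin, was seen in all 16 cycling cells of day 7, from 40.6 CPM through a median of 1261 to 8167 CPM per cell, against a median of 142 in the others. In sum it stood at 2756 against 687 CPM on day 7 (4.01-fold, 3.81 to 4.23), with 46.2% of its UMIs in 1 cell, and without that cell at 1756 CPM (2.56-fold, 2.39 to 2.73). On day 3 it stood at 502 against 272 CPM (1.84-fold, 1.67 to 2.03), or at 399 without the cell with most contractile UMIs (1.46-fold). Tagln, transgelin, stood at 151 against 27.9 CPM on day 3, in 13 of 17 cells against 39 of 124, with 44.4% of its UMIs in 1 cell and a median of 25.1 CPM per cell against 0. Without that cell it stood at 91.3 CPM (3.27-fold, 2.50 to 4.29). On day 7 Tagln stood at 1064 against 325 CPM, with 36.0% of its UMIs in 1 cell. Myh11, which defines mature smooth muscle, came from 3 cells of day 7 at 75.9 against 2.15 CPM, with 79.7% of its UMIs in 1 cell. Of the 16 cycling cells of day 7, 1 lay in a cluster led by Myh11, Tagln and Acta2. Another 7 lay in the Timp1 cluster, which carried 4 smooth muscle markers beside 7 fibroblast markers. With each library clustered alone, 7 cycling cells of day 7 were fibroblast-like. In that clustering a shallow day 7 cluster with Timp1, Vcam1 and Acta2 among its leading genes was named smooth muscle-like. It carried 7 smooth muscle and 7 fibroblast markers. The summed smooth muscle markers were 4407 against 1191 CPM on day 7 and the summed fibroblast markers 32876 against 70323 (36162 against 53033 on day 3). The part of mixed or intermediate cells in this result was not tested.

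Matrix genes of cycling fibroblast-like cells had a median of -0.36 on day 3, with none of 12 past 2-fold, and of -0.77 on day 7, with 3 lower and 1 higher. Col1a1 stood at 10517 against 13671 and 10787 against 18080 CPM, Col3a1 at 12233 against 18608 and 8141 against 25088, and Timp1, an inhibitor of matrix proteases, at 2683 against 3134 and 2326 against 1091. Weighted to the clusters of the cycling cells, the matrix median of day 7 was 0.28, and those of purine (0.78 to -0.089) and ribosome biogenesis genes (0.75 to -0.085) also changed sign.

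On day 3 cycling fibroblast-like cells stood out for growth genes. In all, 7 of 14 ribosome biogenesis genes were higher (median 1.04), with nucleolin, Ncl, at 609 against 159 CPM, and splicing genes had a median of 1.20, with Snrpd1 at 345 against 109 CPM. Of 8 cholesterol synthesis genes, 4 were higher (median 1.10), such as Hmgcs1 at 135 against 52.3 CPM and Fdps at 189 against 64.3, the highest median of this list in the 8 comparisons. Of 14 quiescence and stress genes, 8 were lower (-1.33), with Zfp36 at 44.6 against 251 CPM, Dusp1 at 86.1 against 371 and Nr4a1 at 26.3 against 138. The cycling cells were the deepest of all classes, with a median of 72086 UMIs against 27970 in the others. On day 7, 7 of 8 interferon-stimulated genes were lower, and Rsad2 and Ifit3 had no UMI in the 16 cells against 126 and 106 CPM in the others. MHC class II genes were higher in 5 of 5 there, but 96.6% of the UMIs of Cd74 came from 1 cell.

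Cycling smooth muscle-like cells of day 3 were lower in contractile genes than the other smooth muscle-like cells, with matrix genes near the level of the others. Of 9 contractile genes, 6 were lower, with a median of -1.12. Acta2 stood at 5073 CPM in the 12 cycling cells against 12743 in 61 others (0.398-fold, 0.383 to 0.414), and per cell it ran from 1762 through a median of 4125 to 11647 CPM, against a median of 10798. The ranges overlap, but every cycling cell still held Acta2. Myh11 stood at 613 against 1343 CPM, Cnn1, calponin, at 298 against 715, and Myl9, a myosin light chain, at 738 against 1950. Fn1 stood at 4095 against 2503 CPM (0.71), Postn, periostin, at 1826 against 1794 (0.02), Col1a1 at 2939 against 2766 (0.09), Col3a1 at 1783 against 2856 (-0.68), and the matrix median was 0.07.

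By size, the genes named lower in these cells were Sost, Sparcl1, Fbxl22, Fmo2, Hmox1 and Crct1, and Sost, which encodes sclerostin, had no UMI against 173 CPM in the others. Crct1 rests on 1 UMI in the cycling cells and on 3.28% of the 61 others, and its log2 ratio was 0.00 with depth matched. The named genes on the higher side were Trim59, Diaph3, Foxm1, Cep55, Slfn9 and Kifc1. Zfp36 stood at 130 against 479 CPM and Dusp1 at 315 against 702. The summed smooth muscle markers were 11582 against 25522 CPM and the cycling cells were deeper, with a median of 40215 UMIs against 24927. With depth matched the number of genes called lower went from 246 to 469, so the count itself is not stable.

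The remaining cycling cells were too few, or too shallow, for a comparison of genes. The 6 endothelial-like cells of day 3 had a median of 2080.5 UMIs, and 4 of them had under 0.5% mitochondrial UMIs. Of these cells, 2 had 62453 and 77731 UMIs and the others 1272 to 2184, so a summed level describes those 2 cells. Pecam1, an endothelial adhesion molecule, was seen in 4 of the 6 and Acta2 in 3. The 17 unnamed cells of day 3 had a median of 2518 UMIs, and 9 had under 0.5% mitochondrial UMIs. Most of them lay by a shallow cluster led by Mt2, Hist1h2ap and Ube2c, which held 13 cycling cells of 42 on day 3 and 5 of 7 on day 7. The part of low depth and low mitochondrial share in these counts was not tested. On day 14 the 8 cycling monocyte/macrophage-like cells had Plac8 at 0 UMIs against 287 CPM, C1qa at 4075 against 3959 CPM and H2-Ab1 at 1666 against 5188 CPM. The 5 dendritic-like cells had Flt3 at 323 against 146 CPM, from 3 cells, but Cd209a at 149 against 549, Clec10a, a lectin, at 99.5 against 258 and H2-Ab1 at 7513 against 12248 CPM.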

How the data were processed

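The deposited files hold UMI counts per gene and cell barcode, which the authors made from 10x 3′ libraries with Cell Ranger (3.0.2 by the matrix headers, while the methods name another version), 1 library a time point. The headers name a human build for these mouse genes, so no coordinate was taken from the files. The counts were used as deposited. Cells were kept at 500 genes, 1000 UMIs and at most 10% mitochondrial UMIs. The cells outside the rule were clustered with scanpy 1.11.5 and leidenalg 0.10.2 under Python 3.11.15. This used 2000 variable genes, chosen after 338 cycle genes were left out, with 30 principal components, 15 neighbours and resolution 1. The 31 clusters were named by at least 3 marker genes. Each marker had to reach 50 CPM, be seen in at least 10% of cells and lie 3-fold over the lower quartile of the clusters. A marker shared by several clusters could thus pass in each. Among classes that passed, the choice rested on the share of its markers plus its count of markers among the leading genes. Doublets were scored with Scrublet, which by its own threshold marked 17 cells. The 0.8% highest scores per 1000 barcodes were therefore taken as likely doublets, 106 in all, and were kept in the main values.

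In each comparison, CPM were computed from UMIs summed over cells, 10 CPM were added, and genes with at least 20 UMIs in all and 20 CPM in either group were compared. Intervals are exact Clopper-Pearson, Poisson and conditional binomial intervals (scipy 1.17.1). Comparisons were planned for classes with at least 20 cycling cells, which only monocyte/macrophage-like cells reached, and were extended to at least 10 after seeing the data. Genes named by size were those past 2-fold in the same direction on every day compared, up to 6 each way, outside the cycle lists, class markers and predicted, histone and mitochondrial genes. The cell rule, markers and gene lists were chosen with earlier results of these data known. The scripts were tested on simulated data.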

Additional observations from a re-analysis of the deposited data

Results flagged for a closer look

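Uninjured arteries lie outside the comparisons above, yet 9 of their 249 cells met the rule, a share of 3.61% (1.67 to 6.75%) that lies above the limit a count of 0 allows. Of the 9, 6 were T cell-like, with a median of 18352 UMIs. Among these 6 cells, Dntt, the terminal transferase of developing lymphocytes, was seen in 5 (530 CPM), Rag1, of the recombinase that assembles antigen receptors, in 4 (177 CPM) and Cd8b1 in 4. Dntt and Rag1 were each seen in 4 of the 15 other T cell-like cells of day 0. Neither was seen in the T cell-like cells of days 7 and 14 or in the 58 other T cell-like cells of day 3. The only cycling T cell-like cell of day 3 was a shallow copy of a day 0 barcode and held a Dntt UMI. The other 3 of the 9 were copied barcodes, and without copies the day 0 share was 2.49% (6 of 241 cells). No vessel wall cell was among those 6. After thinning to 2000 UMIs, 0 of 184 fibroblast-like cells of day 0 met the rule.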

How the results depend on the processing

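The share of cycling cells was 5.69% on day 3 and 3.37% on day 7 with at least 5 UMIs and 0.05%, and 4.29% and 2.55% after thinning to 2000 UMIs. Thinning to 2000 UMIs also gave 4.92% in smooth muscle-like cells of day 3 and 2.71%, 1.74% and 4.97% in monocyte/macrophage-like, dendritic-like and fibroblast-like cells of day 7, with 8.65%, 4.88% and 0.192% in vessel wall cells of days 3, 7 and 14 and 3.35% and 2.35% in the 4 immune classes together on days 3 and 7. Thinning to 1000 UMIs gave 2.78%, 2.41%, 2.84% and 2.74% in monocyte/macrophage-like, dendritic-like, fibroblast-like and smooth muscle-like cells of day 3, and 1.77%, 1.40%, 2.53% and 2.76% in monocyte/macrophage-like, dendritic-like, T cell-like and fibroblast-like cells of day 7. Fewer UMIs make 3 UMIs a larger share of a cell, so these fall by construction. The fibroblast-like share of cycling cells was 37.6% on day 3 with all cells clustered together and 7.87% on day 7 with each library clustered alone.

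Counts of genes past 2-fold depended on the pseudocount. With 1 CPM they were 466 higher and 376 lower in monocyte/macrophage-like, 578 and 403 in dendritic-like, 519 and 344 in fibroblast-like and 594 and 393 in smooth muscle-like cells of day 3, and on day 7 they were 379 and 448 in dendritic-like and 457 and 813 in T cell-like cells, with 540 and 522 higher in monocyte/macrophage-like and fibroblast-like cells. With 50 CPM the same 4 classes of day 3 had 43 and 58, 33 and 58, 61 and 70, and 47 and 73, and on day 7 monocyte/macrophage-like, dendritic-like, T cell-like and fibroblast-like cells had 48 and 86, 43 and 34, 45 and 54, and 61 and 129. The mean of cells gave 510 higher and 343 lower genes in fibroblast-like and 493 and 580 in smooth muscle-like cells of day 3, 391 lower in dendritic-like and 487 higher in fibroblast-like cells of day 7. Matched on depth, 469 genes were lower in smooth muscle-like cells of day 3 and 517 in dendritic-like cells of day 7. Against other cells with no UMI of the rule genes, 468 were higher in fibroblast-like cells of day 7. Weighted to clusters, 133 and 124 genes were lower in monocyte/macrophage-like cells of days 3 and 7, and 153 were higher and 64 lower in fibroblast-like cells of day 7.

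Some list medians changed sign. Matched on depth these were resident macrophage genes in dendritic-like cells (-1.49 and -2.14), inflammatory cytokines there on day 7 (-0.95), alternative activation (-0.48) and proteasome genes (-0.093) in monocyte/macrophage-like cells of day 7, and, in T cell-like cells, quiescence genes (0.20), ribosome biogenesis (-0.94), glycolysis (-0.47) and purine genes (-0.36). By the mean of cells these were interferon-stimulated genes in fibroblast-like cells of day 3 (0.14) and ribosomal proteins in monocyte/macrophage-like (0.073) and dendritic-like cells (0.024) of day 7. Weighted to clusters these were resident macrophage (-0.023) and alternative activation genes (-0.25) in monocyte/macrophage-like cells of day 7 and, in fibroblast-like cells of day 7, ribosome biogenesis (-0.085), ribosomal proteins (-0.32), glycolysis (-0.46), respiratory chain (-0.086), proteasome (-0.14), purine (-0.089), growth factor receptor (0.14) and matrix genes (0.28). The cause was not tested.

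Leaving out copied barcodes, doublet-scored cells or cells under 0.5% mitochondrial UMIs moved no share beyond its interval, and no count of genes by over 1.5 times, where these were run, although the vessel wall share of day 14 went from 0.891% to 0.362%, and from 23.8% to 11.8% of the cycling cells, without copies. Leaving out copied barcodes, doublet-scored cells in the gene comparisons or low mitochondrial cells, cluster weighting, leaving out the top contractile cell and the minimum of 10 cells were chosen after seeing the data. No paired analysis was possible because each time point has 1 library. With 1 pooled library a time point, no leaving out of replicates was possible, and classes with under 20 cycling cells carry wide intervals.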
